A study of Mus musculus with 13 samples.

Results

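Total RNA of Yumm1.7 cells, a mouse melanoma cell line, was compared between 1 library of cells treated with 1 µM 5-Aza-CdR for 72 h and 1 library of cells treated with DMSO, the solvent control. The members were the genes whose mean level over these 2 libraries, of 13 in the series, reached 1 CPM (counts scaled to a column sum of 1e+06 in each library). They numbered 14391 of the 54532 genes listed. Both groups carried the genotype label WT, and no other agent is listed for either. The duration of the DMSO treatment is not stated in the sources used here. Differences are given as log2 of CPM + 0.5, 5-Aza-CdR minus DMSO, and a gene was counted as higher or lower from a 4-fold difference on that scale. With 1 library per condition there was no replicate check and no test in total RNA, so "higher" and "lower" describe these libraries only. The precipitated libraries of the series, enriched for double-stranded RNA by J2 or for Z-form nucleic acid by Z22 (both antibodies), served as separate libraries with and without the drug. Of these 8 libraries, 4 came from cells given 5-Aza-CdR alone or with ADAR1i-124, an inhibitor of the RNA-editing enzyme ADAR1, and 4 from cells given DMSO or ADAR1i-124 (10 µM for 12 h) without 5-Aza-CdR. Whether total and precipitated RNA, or the J2 and Z22 RNA of 1 treatment, came from the same cultures is not stated. Each group of 4 libraries may thus hold fewer than 4 cultures.

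5-Aza-CdR (decitabine) is a cytidine analogue that is phosphorylated by deoxycytidine kinase, built into DNA during replication, and there traps DNA methyltransferase 1, so that methylation marks are lost as cells divide. Cytosine methylation at CpG dinucleotides of promoters keeps many germline genes, the inactive X-linked copies of genes and a large part of the repeated sequences silent in somatic cells. Genes held this way are known to be reactivated by the drug. Dividing cells that carry the trapped enzyme can also stop in the cell cycle.

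The 5-Aza-CdR library held 34571822 counts and the DMSO library 17015425, a ratio of 2.03, and 3 counts in the DMSO library, the smallest number taken as detected, amount to 0.176 CPM. At least 3 counts were found for 22372 genes with 5-Aza-CdR and for 18427 with DMSO, where 20170 would be expected in the 5-Aza-CdR library at the depth of the DMSO library. Intervals below are 95% exact Clopper-Pearson intervals of the log2 ratio of CPM without the added 0.5, so for genes near 0 the printed log2 difference can lie below them. They cover counting error only. Of the melanocyte markers, Tyr, Tyrp1 and Mlana were at 0 counts in both libraries and Dct and Sox10 had at most 2, whereas Mitf, the transcription factor of the lineage, was at 22.2 CPM with DMSO and 33.1 CPM with 5-Aza-CdR. The pigment genes of the lineage named here thus had fewer than 3 counts in both libraries. Markers of other cell types also differed: 4 of the 5 fibroblast markers that passed the level filter were at least 4-fold higher with 5-Aza-CdR (Col1a1, Col1a2, Dcn and Pdgfra, with Thy1 at 0), and 2 of 8 leukocyte markers passed the filter and were higher (Cd68 and Lyz2), with Ptprc at 0 and 42 counts. The endothelial cadherin gene Cdh5 was at 3.7 and 81.1 CPM, and Krt5 and other keratinocyte markers did not reach the 4-fold line. The part of such cells or of drift between cultures in the differences below was not tested.

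In the 5-Aza-CdR library 860 genes (5.98% of those compared) stood at least 4-fold above their DMSO level, and 254 (1.76%) stood at least 4-fold below it. The median over all 14391 genes was 0.06. At a 2-fold line 2450 genes were higher and 1289 lower, and 114 genes were at least 16-fold higher. Between the ADAR1i-124 and DMSO libraries of total RNA, neither of which had 5-Aza-CdR, 257 of 13693 genes (1.88%) lay above the 4-fold line with ADAR1i-124 and 281 (2.05%) below it. The number of higher genes with 5-Aza-CdR thus exceeded the number between libraries without the drug, and the number of lower genes did not. With the ADAR1i-124 library in place of DMSO as the control, 926 genes were higher and 225 lower with 5-Aza-CdR. Genes without detected RNA in the control gave unequal numbers in the 2 directions: 198 genes were under the CPM of 3 counts with DMSO and passed the level filter through the 5-Aza-CdR library, while 3 genes were under that CPM with 5-Aza-CdR. Between ADAR1i-124 and DMSO the same counts were 35 and 45.

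**Figure D1:**
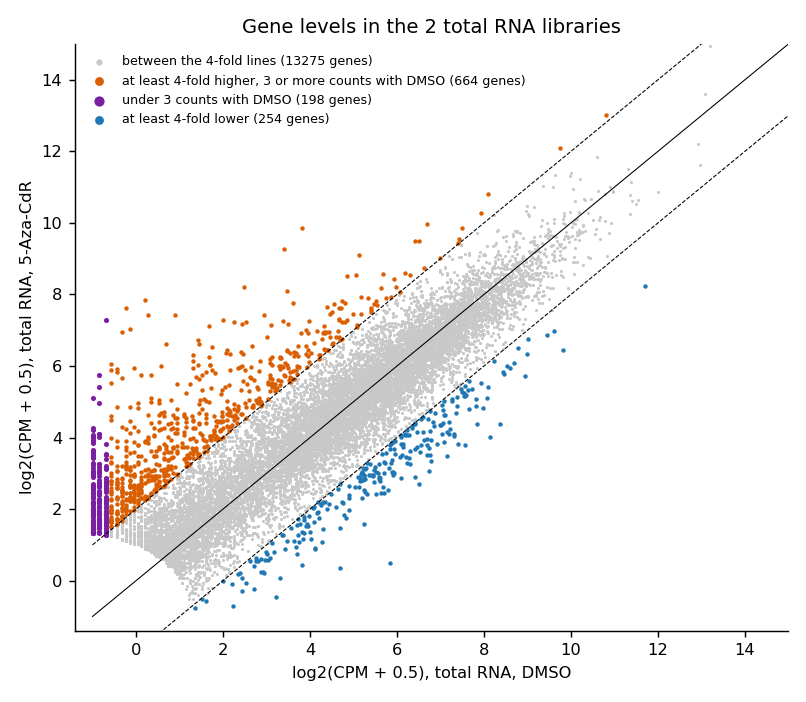
Level of each of the 14391 genes in the DMSO library (x axis) and the 5-Aza-CdR library (y axis) of total RNA, as log2 of CPM + 0.5, 1 point per gene. The dashed lines mark 4-fold differences. The 664 orange points are genes at least 4-fold higher with 3 or more counts with DMSO, the 198 purple points at the left edge had fewer than 3 counts with DMSO, and the 254 blue points lie below the lower line.

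The promoters of 6 genes that carry these patterns are shown here, because loss of CpG methylation acts on such sequence: Dazl and Tex19.1, genes of germ cells; Xist, the noncoding RNA that silences an X chromosome; Gm14149, the noncoding gene with the highest level among those silent with DMSO; Vmn2r92, a vomeronasal receptor gene; and Ccnb1, encoding cyclin B1, from the lower genes. Each runs from 250 bases before to 50 bases after the gene start on the gene's own strand, from RefSeq on GRCm38.p6, with every CG in capitals. They lie at chr17:50293571-50293870 on the minus strand (Dazl), chr11:121145893-121146192 on the plus strand (Tex19.1), chrX:103483184-103483483 on the minus strand (Xist), chr2:151204945-151205244 on the plus strand (Gm14149), chr17:18151680-18151979 on the plus strand (Vmn2r92) and chr13:100786437-100786736 on the minus strand (Ccnb1).
Dazl: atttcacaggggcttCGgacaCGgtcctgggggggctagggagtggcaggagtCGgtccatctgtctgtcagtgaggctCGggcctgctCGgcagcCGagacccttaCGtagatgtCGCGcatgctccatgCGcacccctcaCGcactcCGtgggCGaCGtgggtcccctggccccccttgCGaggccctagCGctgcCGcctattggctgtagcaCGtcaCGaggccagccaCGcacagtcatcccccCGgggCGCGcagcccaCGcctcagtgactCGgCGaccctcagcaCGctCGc
Tex19.1: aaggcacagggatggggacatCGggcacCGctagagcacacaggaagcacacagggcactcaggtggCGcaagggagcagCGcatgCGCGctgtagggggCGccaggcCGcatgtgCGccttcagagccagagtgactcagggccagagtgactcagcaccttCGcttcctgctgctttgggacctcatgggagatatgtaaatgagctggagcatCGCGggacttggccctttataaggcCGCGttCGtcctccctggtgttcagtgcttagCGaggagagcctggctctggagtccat
Xist: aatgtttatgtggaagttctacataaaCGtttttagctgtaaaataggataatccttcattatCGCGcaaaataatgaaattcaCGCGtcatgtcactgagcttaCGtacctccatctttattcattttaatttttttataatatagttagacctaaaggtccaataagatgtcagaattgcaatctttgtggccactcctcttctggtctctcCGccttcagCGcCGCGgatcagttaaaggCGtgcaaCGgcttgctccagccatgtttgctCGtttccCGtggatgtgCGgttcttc
Gm14149: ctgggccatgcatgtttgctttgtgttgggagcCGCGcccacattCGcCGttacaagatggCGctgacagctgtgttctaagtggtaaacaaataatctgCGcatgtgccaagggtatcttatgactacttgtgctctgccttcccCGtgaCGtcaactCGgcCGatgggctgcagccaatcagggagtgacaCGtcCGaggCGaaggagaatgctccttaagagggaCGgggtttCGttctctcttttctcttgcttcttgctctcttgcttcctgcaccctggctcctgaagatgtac
Vmn2r92: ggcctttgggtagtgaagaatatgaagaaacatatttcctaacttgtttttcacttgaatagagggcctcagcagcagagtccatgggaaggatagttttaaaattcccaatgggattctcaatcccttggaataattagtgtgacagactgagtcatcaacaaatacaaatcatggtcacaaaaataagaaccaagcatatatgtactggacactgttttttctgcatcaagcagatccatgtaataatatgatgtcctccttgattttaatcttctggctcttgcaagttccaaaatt
Ccnb1: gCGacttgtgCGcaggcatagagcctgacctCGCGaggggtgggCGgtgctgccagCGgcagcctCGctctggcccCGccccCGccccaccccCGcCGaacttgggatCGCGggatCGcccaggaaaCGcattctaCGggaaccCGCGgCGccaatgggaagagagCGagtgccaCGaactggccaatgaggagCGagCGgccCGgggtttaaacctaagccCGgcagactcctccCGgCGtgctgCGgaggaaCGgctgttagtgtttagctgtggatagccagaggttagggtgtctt
The Dazl promoter held 28 CpG in 300 bases, Ccnb1 29, Tex19.1 16, Xist 15 and Gm14149 15, while the Vmn2r92 promoter held 0. CpG-rich windows thus occurred both among genes that were silent with DMSO and in a gene that was lower with 5-Aza-CdR, and 1 of the silent genes had no CpG in its window at all.

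Of the 198 genes silent with DMSO, 88 had no count there and 102 also had fewer than 3 counts in the ADAR1i-124 library of total RNA. Gm14149, a lincRNA gene on chromosome 2, went from 0 counts to 1184, or 34.2 CPM, at least 194-fold higher against 3 counts of the DMSO library. It was at 0.0568 CPM with ADAR1i-124. In the precipitated libraries it was at 0 to 0.136 CPM in the 4 without 5-Aza-CdR and at 37.5 to 76.5 CPM in the 4 with it, so the groups did not overlap. Gm40518, another lincRNA gene, had 0 and 629 counts (at least 103-fold), and 8.08 to 29.6 CPM in precipitated libraries with the drug against at most 0.208 CPM without. Snhg14, the long host transcript of the Prader-Willi and Angelman region, had 0 and 645 counts (at least 106-fold). Snhg14 lies on the opposite strand to Ube3a, a ubiquitin ligase gene, which was at 302 CPM with DMSO and 276 CPM with 5-Aza-CdR, and the strand setting of the authors' counting is not stated. Gm16572 had 0 and 549 counts and lies within Med6, a Mediator subunit gene on the other strand, which was at 29.6 and 16.1 CPM.

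Protein-coding genes made up 153 of the 198, and their values across libraries fell into distinct kinds. Has2, encoding a hyaluronan synthase of the cell surface, had 1 and 1442 counts, 0.0588 and 41.7 CPM, with an interval of the log2 ratio of 6.99 to 14.78. Its precipitated libraries with 5-Aza-CdR were at 14.5, 11.6, 3.67 and 2.41 CPM, all above the 0.492 CPM that was the highest without. Igfbp3, encoding a binding protein for insulin-like growth factors, had 2 and 5358 counts, the largest log2 difference among protein-coding genes above 10 CPM at 7.98. Its precipitated libraries did not show that difference, since the 4 with 5-Aza-CdR were at 2.48, 17.6, 3.06 and 10.6 CPM and the 4 without at 18.1, 1.67, 0.573 and 6.89 CPM. Efemp1, encoding a matrix glycoprotein, had 1 and 1843 counts, but 11.6 CPM with ADAR1i-124 in total RNA and 17.8 CPM in the J2 library with DMSO. Slitrk6, encoding a neuronal membrane protein, had 0 and 565 counts and at most 0.595 CPM in any precipitated library. The 3 mirror genes were Mir6236 (71 and 4 counts), 4930558J18Rik (43 and 6 counts) and Gm4739 (35 and 3 counts).

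Germline genes act in piRNA silencing of transposons, in meiosis and in germ cell development, and most were too low for the comparison. Of 85 such genes listed, 17 reached a mean of 1 CPM, and of those 7 were higher, beside 5.98% of all genes, and 0 lower (1 to 10 higher under other pseudocounts, scalings and filters). The median log2 difference of the 17 was 1.16 against 0.06 over all genes (0.98 with a pseudocount of 2 CPM and 1.91 with column sums without the 20 largest genes), with the limit that silent members could pass the filter only through the 5-Aza-CdR library. Tex19.1, a regulator of retrotransposons in germ cells, had 0 and 173 counts, or 5 CPM with 5-Aza-CdR, at least 28.4-fold higher. It was at 0 CPM in 3 of the 4 precipitated libraries without 5-Aza-CdR and at 0.205 CPM in the other, and at 28.8, 18.9, 18.9 and 15 CPM in the 4 with the drug. Dazl, an RNA-binding protein gene required for germ cells, had 0 and 107 counts (at least 17.6-fold), and 6.34 to 18.6 CPM in precipitated libraries with the drug against at most 0.0821 CPM without. Tdrd9, a helicase gene of the piRNA pathway, was detected with DMSO at 0.764 CPM (13 counts) and was at 11.9 CPM with 5-Aza-CdR, a log2 difference of 3.29 (interval 3.17 to 4.88). Dppa4, a gene of early embryonic cells, was at 0.47 and 7.35 CPM, and Dpep3, a testis-expressed dipeptidase gene, had 2 and 143 counts.

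More members of this class were measurable after precipitation. Of the 85 germline genes 38 had every precipitated library with 5-Aza-CdR above every one without, beside 12.3% of the 14391 genes compared. By edgeR 32 of the 85 were called higher and 1 lower, with 42 entering its test, beside 4.83% of all genes tested called higher, with the limit that silent members could enter that test only through the libraries with the drug. Tex101 (2 and 54 counts in total RNA) and the synaptonemal complex gene Sycp3 (6 and 20 counts), both picked after their values were seen, were at 5.47 to 10.5 CPM and 1.59 to 2.97 CPM in the precipitated libraries with the drug, and at no more than 0.0821 CPM without. Of 83 X-linked testis genes, 4 passed the level filter in total RNA, which a silent member could do only through the 5-Aza-CdR library. Of the 4, 2 were higher, beside 5.98% of all genes, namely Nxf3 (0.47 and 5.32 CPM), an mRNA export factor gene, and the homeobox gene Rhox2d (0 and 77 counts, at least 12.6-fold). Rhox5, a homeobox gene of the same cluster, was not higher in total RNA, at 36.6 CPM with DMSO, 0.851 CPM with ADAR1i-124 and 25.6 CPM with 5-Aza-CdR. After precipitation Rhox5 was at 81.8 to 139 CPM with the drug and 8.29 to 50.4 CPM without. In all 20 of the 83 X-linked genes were separated in that way, beside 12.3% of the genes compared in total RNA. RHOX genes are near-identical in part, so reads may be shared among copies.

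Genes for smell and pheromone receptors, which act in sensory neurons, and for keratins of epithelia were also among those silent with DMSO, at low levels. Of 1474 olfactory and vomeronasal receptor genes 18 passed the level filter, 5 were higher (2 to 8 under the alternatives) and 0 lower, beside 5.98% of all genes higher, and 1206 had no count in either library. Here and for the keratins below, silent members could pass the filter only through the 5-Aza-CdR library. Olfr194 had 1 and 313 counts, Vmn2r96 1 and 264, Vmn2r92 0 and 172 and Vmn2r16 0 and 72. Vmn2r92 was at 3.43 to 13.5 CPM in the precipitated libraries with 5-Aza-CdR and at most 0.164 CPM without. Krt8, a simple-epithelial keratin gene, had 0 and 72 counts (at least 11.8-fold), with 4.59 to 13.5 CPM against at most 0.136 CPM in the precipitated libraries. Krt23 had 2 and 139 counts, and of the 152 genes of keratins and the epidermal cluster 8 passed the filter and 3 were higher (0 to 4 under the alternatives), beside the same 5.98%.

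**Figure D2:**
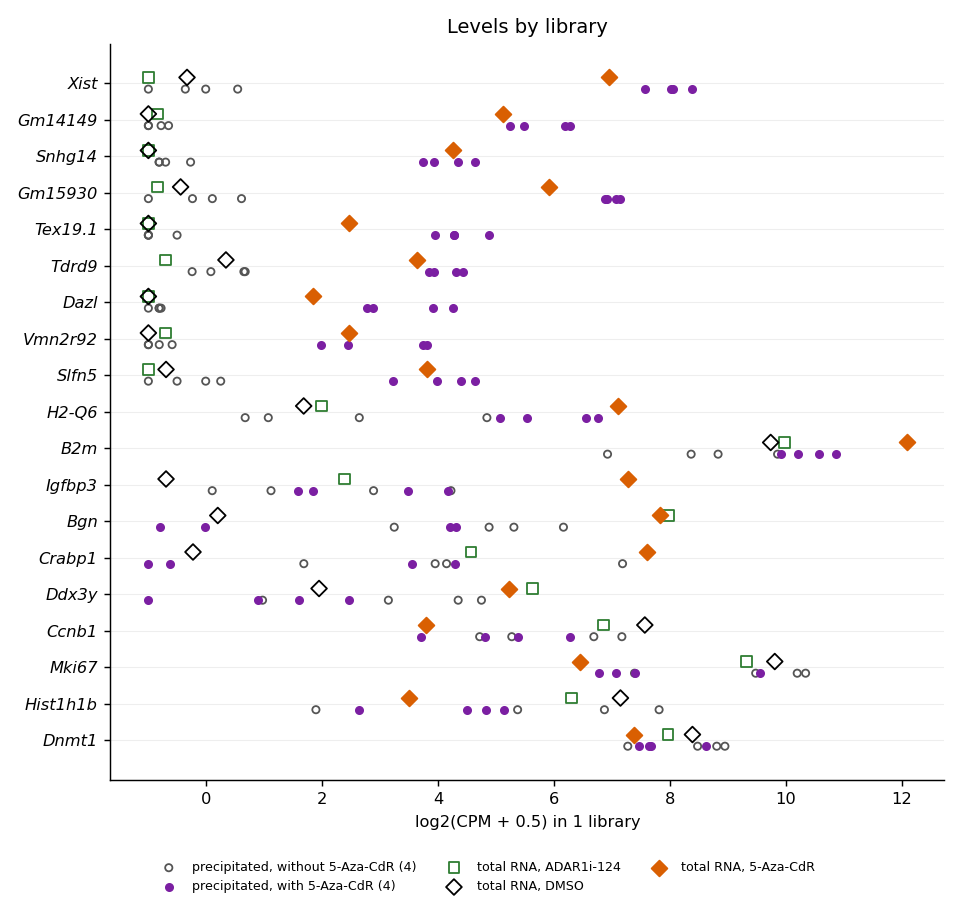
Level of 19 genes in each library as log2 of CPM + 0.5 (x axis), 1 symbol per library: open circles for the 4 precipitated libraries without 5-Aza-CdR, filled circles for the 4 with it, and squares and diamonds for total RNA. From Xist to B2m filled circles lie to the right of all open ones, whereas for Igfbp3 and Ddx3y they overlap and for Bgn and Crabp1 the total RNA library with 5-Aza-CdR stands to the right of all 4 precipitated libraries with the drug.

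Noncoding genes, taken as all annotated biotypes other than protein-coding, with pseudogenes and 1 T cell receptor segment among them, had 115 of 2732 (4.21%) higher and 20 (0.732%) lower, and 45 were silent with DMSO. The shares by class were unequal. Of 297 lincRNA genes 36 (12.1%) were higher and 4 lower, and of 152 pseudogenes other than processed ones 19 (12.5%) were higher and 1 lower. Of 705 processed pseudogenes, copies made from mRNA, 6 (0.851%) were higher and 5 lower. Antisense genes had 10 of 192 higher (5.21%), TEC genes (models still to be checked by experiment) 29 of 885 (3.28%) and snoRNA genes 0 of 49, beside 745 of 11653 protein-coding genes (6.39%). The lincRNA share of all counts was 1.94% with DMSO, 4.25% with ADAR1i-124 and 4.67% with 5-Aza-CdR. That of protein-coding genes was 95.9%, 93.7% and 92.8%. The ADAR1i-124 library, without 5-Aza-CdR, thus also differed from DMSO in these shares and in the same direction. Gm26917, a lincRNA gene that takes up reads of ribosomal RNA, took 0.178%, 2.45% and 0.835% in these libraries. Malat1, an abundant nuclear lincRNA named here after its values were seen, took alone 0.942% of counts with DMSO, 1.06% with ADAR1i-124 and 3.15% with 5-Aza-CdR. In the J2 libraries Malat1 took 1.83% with DMSO and 1.46% with 5-Aza-CdR alone, and in the Z22 libraries 1.03% and 1.72%.

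Xist gave the largest log2 difference among noncoding genes, 7.28, from 5 counts (0.294 CPM) to 4248 counts (123 CPM). It had 0 counts with ADAR1i-124 in total RNA. Its 4 precipitated libraries without 5-Aza-CdR were at 0.492, 0.278, 0 and 0.955 CPM, and the 4 with it at 259, 333, 264 and 189 CPM, with no overlap (log2 difference 8.93 ± 0.55, SE, 4 libraries of different conditions against 4, edgeR quasi-likelihood test, Benjamini-Hochberg adjusted p = 0.0002). Xist could enter that test only through the libraries with the drug. Tsix, the antisense gene that overlaps Xist, had 0 and 4 counts. Gm15930, an unprocessed pseudogene on chromosome 7, was at 0.235 and 60 CPM in total RNA and at 118 to 139.6 CPM in the precipitated libraries with the drug against at most 1.02 CPM without. Gm43549, a noncoding gene on chromosome 3 beside Dclk1, was at 2.82 and 41 CPM, and Trdc, the constant segment of the T cell receptor delta chain, at 0.411 and 21.5 CPM, where the ADAR1i-124 library was at 9.02 CPM.

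Some higher gene models consist almost wholly of repeated sequence, and 5 of them were picked after their values were seen: Gm26870, a lincRNA gene, and Gm10800, Gm10801, Gm11168 and Gm10722, which the annotation gives as protein-coding. Gm10800 was at 2 CPM with DMSO, 4.2 with ADAR1i-124 and 78.6 with 5-Aza-CdR in total RNA. In the J2 libraries it was at 6.73 and 7.09 CPM without the drug and at 2183 and 1082 CPM with it, and in the Z22 libraries at 0.458 and 1.02 CPM without and 63.1 and 264 CPM with it. Gm26870, at the start of chromosome 9 (chr9:3000282-3038313), was at 0.529 and 13.3 CPM in total RNA, and in J2 libraries at 29.4 and 46.9 CPM without and 1987 and 1932 CPM with the drug. Gm10801 (0.235 and 28.3 CPM), Gm11168 (0.588 and 5.99 CPM) and Gm10722 (0.118 and 2.05 CPM) had the same order in total RNA. These genes have near-identical copies, so the split of reads among them is uncertain.

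Repeats at gene starts were described for the noncoding genes. A start in soft-masked repeat letters of the reference was found for 37 of the 115 higher noncoding genes (32.2%) and 22 of the 45 silent ones (48.9%), against 21.5% of all noncoding genes compared. For the 70 higher noncoding genes that were not silent it was 15 (21.4%), so the excess lay in the silent ones. The start of Gm14149 was among them. Of the 115, 4 began within 10 kb after the end of a higher gene on the same strand, and 22 overlapped a gene with at least 3 counts on the other strand, and for 4 of them a partner was itself higher.

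Promoter sequence, which played no part in choosing genes, was described as CpG observed over expected in the 500 bases on each side of the start. The median was 0.73 over all protein-coding genes compared, 0.49 over the 745 higher ones, 0.43 over the 153 silent ones and 0.75 over the 234 lower ones. In 5 classes of rising CpG ratio over all genes, the higher share was 10.8%, 10.9%, 8.35%, 4.81% and 1.92%, and the lower share went from 0.755% in the lowest class to 2.16% in the highest. The precipitated libraries, which gave their calls separately, showed 7.04%, 6.77%, 4.24%, 2.29% and 0.831% called higher in those classes. Noncoding genes are concentrated at low CpG (median 0.29), and 66.1% of the higher and 66.0% of all noncoding genes had a ratio below 0.4. The letters TCCCGC or GCGGGA, which resemble the core of E2F sites, were present between 250 bases before and 50 after the start in 33.9% of protein-coding genes compared, 42.3% of the lower, 24.6% of the higher and 25.5% of the silent ones. A match is a description of letters and no binding was measured.

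**Figure D3:**
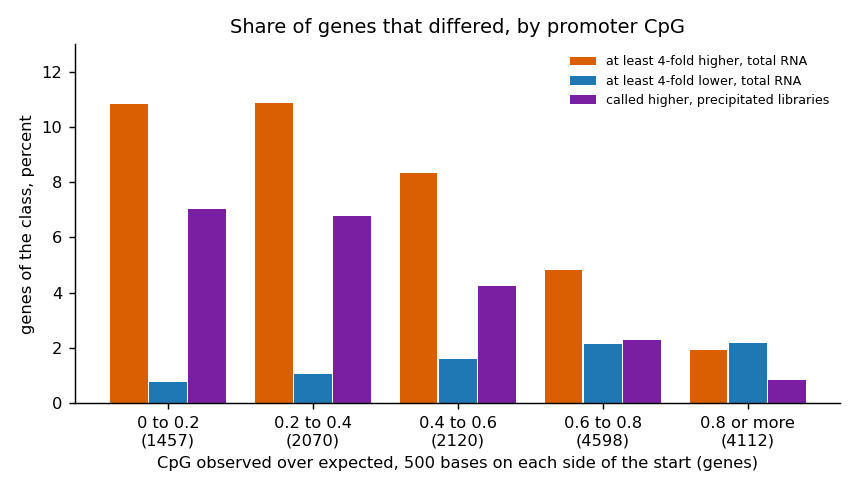
Share of genes that differed (y axis, percent) in 5 classes of CpG observed over expected around the gene start (x axis, number of genes in brackets). Orange bars are genes at least 4-fold higher and blue bars genes at least 4-fold lower in total RNA, and purple bars genes called higher in the precipitated libraries (of those that entered that test). Orange falls from 10.8% to 1.92% and purple from 7.04% to 0.831%.

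The 8 precipitated libraries were used to see which total RNA differences recurred in libraries that had no part in choosing them. The edgeR quasi-likelihood test with antibody and ADAR1i-124 as covariates called 755 of 15647 genes (4.83%) higher and 129 (0.824%) lower with 5-Aza-CdR, at a Benjamini-Hochberg adjusted p under 0.05. These counts depended on single libraries, with 262 to 710 higher and 14 to 171 lower when 1 library was left out. Of the 860 genes higher in total RNA, 290 were called higher, 496 were tested and not called, 74 did not enter the test and 0 were called lower (6 were lower at an unadjusted p under 0.05, and DESeq2 called 5 lower). Without the J2 library of 5-Aza-CdR alone, 150 of the 860 were called. Without any filter or model, 418 of the 860 (48.6%) had all 4 libraries with 5-Aza-CdR above all 4 without, where 12.3% of all genes compared did. For the silent genes this was 119 of 198 (60.1%), and 88 of them were called higher, 49 tested and not called and 61 not in the test. The silent genes had passed the level filter only through the 5-Aza-CdR library of total RNA. Those near 0 in the precipitated libraries without the drug could enter the test only through the libraries with it. By biotype the separated genes were 76 of 115 noncoding (66.1%) and 342 of 745 protein-coding (45.9%) higher genes, and 37 of 45 noncoding (82.2%) and 82 of 153 protein-coding (53.6%) silent genes.

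For the lower genes the shares were smaller. Of the 254, 18 were called lower in the precipitated libraries and 236 were not called, and 11 (4.33%) had every library with 5-Aza-CdR below every one without, where 1.56% of all genes did. The Z22 library with DMSO stood apart, with 46.8% of its counts in 20 genes against 21.5% to 31.6% in the other 7, and 1686 genes were at least 4-fold higher in the Z22 library with ADAR1i-124 than in it. Without that library 34 of the 254 (13.4%) lower genes were separated, against 4.83% of all genes, and 444 of the 860 higher ones (51.6%), against 13.3%. The count of 18 also depended on other libraries: it was 42 without the J2 library of DMSO, 28 without the Z22 library of 5-Aza-CdR, 10 without the Z22 library of the combination and 7 without the J2 library of 5-Aza-CdR. Pairing each library with its counterpart of the same antibody and inhibitor, 525 of the 860 higher genes (61.0%) were higher in all 4 pairs and 34 of the 254 lower genes (13.4%) lower in all 4, against 22.5% of all genes that kept the direction of total RNA in every pair. Without the pair of the Z22 library with DMSO, 108 of the 254 (42.5%) were lower in all 3 pairs and 560 of the 860 (65.1%) higher, against 34.5% of all genes, so for the lower genes the share moved from below to above that of all genes.

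**Figure D4:**
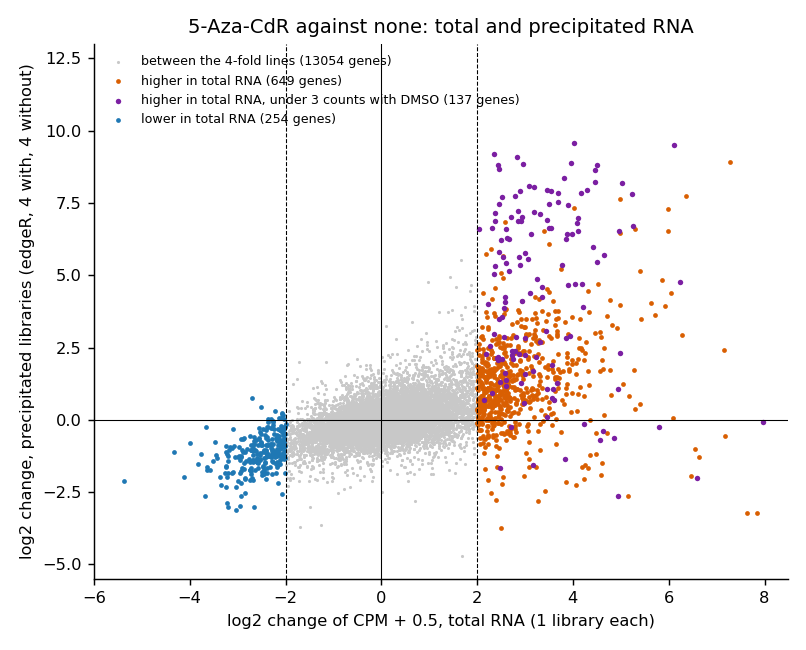
Log2 difference of each gene with 5-Aza-CdR in total RNA (x axis, 1 library each, CPM + 0.5) and in the precipitated libraries (y axis, edgeR fit of 4 with against 4 without), 1 point per gene that entered the precipitated test. Dashed lines mark 4-fold differences in total RNA. Silent genes (purple, 137) reach 5 to 10 on the y axis, many other higher genes (orange, 649) lie near 0, and the lower genes (blue, 254) lie mostly between 0 and -2.5.

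Among immune genes the antigen presentation list had a median above 0 in total RNA and the interferon-response list did not. MHC class I presentation genes, which load peptides onto the cell surface, had 7 of 18 higher (5.98% of all genes) and 0 lower, with a median log2 difference of 1.64 (15 above 0 and 3 below), and their summed level was 2054 CPM with DMSO, 1518 CPM with ADAR1i-124 and 9240 CPM with 5-Aza-CdR. In the precipitated libraries edgeR called 4 of the 18 tested higher, beside 4.83% of all genes tested, and 0 lower. B2m and H2-Q6 were called and H2-D1 was not. Of all 20 listed, 5 had every library with the drug above every one without, beside 12.3% of the genes compared in total RNA. B2m, the light chain common to class I molecules, was at 853 CPM with DMSO, 1009 with ADAR1i-124 and 4331 with 5-Aza-CdR, a log2 difference of 2.34 (interval 2.32 to 2.37). Among precipitated libraries B2m was at 926, 454, 121 and 329 CPM without the drug and at 1513, 1872, 967 and 1187 CPM with it (log2 difference 1.54 ± 0.34, SE, edgeR adjusted p = 0.034). The adjusted p of B2m was under 0.05 in only 5 of 13 alternative fits. H2-D1, a classical heavy chain gene, was at 271 and 1801 CPM, and H2-Q6, a nonclassical one, at 2.7 and 137 CPM. H2-Q6 lay in a run of 3 neighbouring higher genes with H2-Q5 and H2-Q7, which are close in sequence, so the split of reads among them is uncertain. Psmb8, an immunoproteasome subunit gene, was at 9.05 and 48.2 CPM, with 0.851 CPM with ADAR1i-124.

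The interferon-response list had 5 of 67 members higher, a share near the 5.98% of all genes, and 0 lower in total RNA, and a median of -0.06 (-0.12 to -0.03 under the alternatives). The precipitated libraries differed from that: 33 of its 72 genes had every library with 5-Aza-CdR above every one without, beside 12.3% of all genes compared, 6 of the 70 tested were called higher, beside 4.83% of all genes, and 0 lower, and the median log2 difference of the 70 was 1.15. In total RNA its summed level was 7896 CPM with DMSO and 7509 CPM with 5-Aza-CdR, but 795 CPM with ADAR1i-124, so the 2 libraries without 5-Aza-CdR differed more than these 2 did. Among precipitated libraries the sum was 6528 (J2) and 6943 CPM (Z22) with DMSO, 1766 and 3265 CPM with ADAR1i-124, 11025 and 6849 CPM with 5-Aza-CdR alone, and 10598 and 10169 CPM with the combination. With the drug the sum was thus higher than in the counterpart library in 3 of 4 pairs and near it in the Z22 pair without the inhibitor. Slfn5, an interferon-regulated gene of the Schlafen family, had 2 and 469 counts, and in the precipitated libraries 0 to 0.687 CPM without and 8.81 to 24.5 CPM with the drug (log2 difference 5.45 ± 0.80, SE, edgeR adjusted p = 0.0057). Slfn5 could enter that test only through the libraries with the drug. Aim2, a sensor of cytosolic DNA, was at 2.53 and 56.6 CPM, and at 1.53 to 10.9 CPM without against 18.8 to 30.8 CPM with the drug in the precipitated libraries. Irf5 was at 2.76 and 15.9 CPM and Ifi207 at 35.3 and 174 CPM, where the precipitated groups overlapped for Irf5 and did not for Ifi207 (13.6 to 85.5 CPM without and 103 to 168 CPM with the drug). Zbp1, a sensor of Z-form nucleic acid, was also higher in total RNA, with a log2 difference of 2.13. It was not called in the precipitated libraries (log2 difference 2.79, edgeR adjusted p = 0.144). Of the inflammatory genes, which were picked after their values were seen, Csf3, a granulocyte growth factor gene, was at 0.47 and 60.9 CPM and was separated in the precipitated libraries (at most 0.657 CPM against at least 7.35 CPM). Nos2, the inducible nitric oxide synthase gene, was at 4.29, 0.0568 and 151 CPM with DMSO, ADAR1i-124 and 5-Aza-CdR. Lcn2, encoding an iron-scavenging lipocalin, was at 13.6, 0.511 and 932 CPM.

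Genes of the extracellular matrix gave large differences in total RNA, and the precipitated libraries were mixed. Of 23 collagen chain genes 10 were higher and 1 lower, beside 5.98% and 1.76% of all genes. In the precipitated libraries 3 of the 29 collagen genes tested were called higher and 3 lower, beside 4.83% and 0.824% of all genes tested. Of all 44 listed, 8 had every library with the drug above, and 3 below, every one without, beside 12.3% and 1.56% of the genes compared in total RNA. Col4a1, a basement membrane collagen gene, was at 8.05 CPM with DMSO and 142 CPM with 5-Aza-CdR, but at 186 CPM with ADAR1i-124. Its precipitated libraries were at 106, 10.5, 192 and 60.2 CPM without the drug and at 4.51, 33.1, 9.3 and 42.1 CPM with it. Bgn, encoding the proteoglycan biglycan, was at 0.646 CPM with DMSO, 251 CPM with ADAR1i-124 and 227 CPM with 5-Aza-CdR, and at 8.96 to 71.1 CPM in the precipitated libraries without the drug. With 5-Aza-CdR alone Bgn was there at 0.0752 CPM (J2) and 0.49 CPM (Z22), far below the DMSO libraries. With the combination its log2 difference from the ADAR1i-124 library was 0.96 (J2) and -0.58 (Z22), so the pairs were not of 1 direction. Crabp1, a retinoic acid binding protein gene, was at 0.353, 23.2 and 195 CPM in total RNA with DMSO, ADAR1i-124 and 5-Aza-CdR. In the J2 libraries it was at 145 and 2.71 CPM without the drug (DMSO, then ADAR1i-124) and at 0.15 and 19 CPM with it, and in the Z22 libraries at 17.2 and 14.9 CPM without and 0 and 11.3 CPM with it. It was thus lower with the drug in 3 of the 4 pairs and higher in the J2 pair with the inhibitor. Of the 10 protein-coding genes with the largest log2 difference above 10 CPM, 0 were called higher in the precipitated libraries by edgeR, 2 had an unadjusted p under 0.05 in that direction and DESeq2 called 2 higher. Dcn (0.411 and 129 CPM), Tgfbi (0.705 and 173 CPM), Thbs2 (0.235 and 56.9 CPM) and Rasgrf1 (0.176 and 59.1 CPM) were among these 10, and Thbs2 was nevertheless separated in the precipitated libraries, at 0.208 to 1.07 CPM without and 1.8 to 10.5 CPM with the drug. In total RNA the fibroblast markers Col1a1, Col1a2, Dcn and Pdgfra were higher along with them, while Col3a1, a fibrillar collagen gene, was at 1213 and 859 CPM. In the precipitated libraries Col3a1 was lower with the drug, at 263 to 1149.7 CPM without and 168 to 207 CPM with it (log2 difference -1.90 ± 0.47, SE, edgeR adjusted p = 0.049). The adjusted p of Col3a1 was under 0.05 in only 4 of 13 alternative fits. The summed fibroblast markers there were at 1562 (J2) and 1936 CPM (Z22) with DMSO, 290.3 and 505 CPM with ADAR1i-124, 211 and 199.8 CPM with 5-Aza-CdR alone and 276 and 259 CPM with the combination.

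Y-linked genes also varied among the libraries without the drug. Of 7 Y genes compared 6 were higher with 5-Aza-CdR, and 5 neighbours (Uba1y, Kdm5d, Eif2s3y, Uty and Ddx3y) formed the longest run of higher genes. Ddx3y, an RNA helicase gene, was at 3.35 CPM with DMSO, 48.9 with ADAR1i-124 and 36.7 with 5-Aza-CdR in total RNA. In the J2 libraries it was at 26.3 and 1.46 CPM without the drug (DMSO, then ADAR1i-124) and at 1.35 and 5.01 CPM with it, and in the Z22 libraries at 19.8 and 8.32 CPM without and 0 and 2.51 CPM with it. It was thus lower with the drug in 3 of the 4 pairs and higher in the J2 pair with the inhibitor. Without genes of the Y chromosome 854 genes were higher.

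The counts of higher genes in the other lists stand beside 5.98% of all genes. MAPK output genes had 4 of 18 higher (2 to 4 under the alternatives), with Egr1, an immediate early transcription factor gene, at 7.52, 83.7 and 113 CPM with DMSO, ADAR1i-124 and 5-Aza-CdR. Genes of dedifferentiation and the neural crest had 4 of 19 higher, among them Aqp1 (7.23 and 173 CPM), a water channel gene, and Sox9 (19.3 and 121 CPM), and 0 of the 19 were called by edgeR in the precipitated libraries (at an unadjusted p under 0.05, 0 were higher and 1 lower, and DESeq2 called 0). Clustered protocadherins had 3 of 30 higher (1 to 7 under the alternatives) with a median of 1.37, all 3 in the gamma cluster, whose 21 members share exons and so share reads. In the precipitated libraries the median of the 30 was -0.03, and edgeR and DESeq2 called 0 higher or lower (1 was higher at an unadjusted p under 0.05). Imprinted genes had 2 of 17 higher (Rasgrf1 and Grb10), p53 targets 1 of 31 (Fas, 2.23 and 20.1 CPM), retroviral-derived genes 1 of 7 (Rtl5, 3 and 118 counts, 0 to 1 under the alternatives), KRAB-type zinc finger genes 6 of 336 (1 to 7 under the alternatives) and Hox genes 0 of 13. The shares of the KRAB-type, p53 and Hox lists were below that of all genes. In the precipitated libraries Rasgrf1 and Grb10 were higher with the drug only in the J2 pair with the inhibitor. Rasgrf1 had log2 differences of -4.68 and 1.89 (J2) and -2.9 and -0.07 (Z22), without and then with the inhibitor. Those of Grb10 were -5.3 and 1.3 (J2) and -1.92 and -0.4 (Z22).

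**Figure D5:**
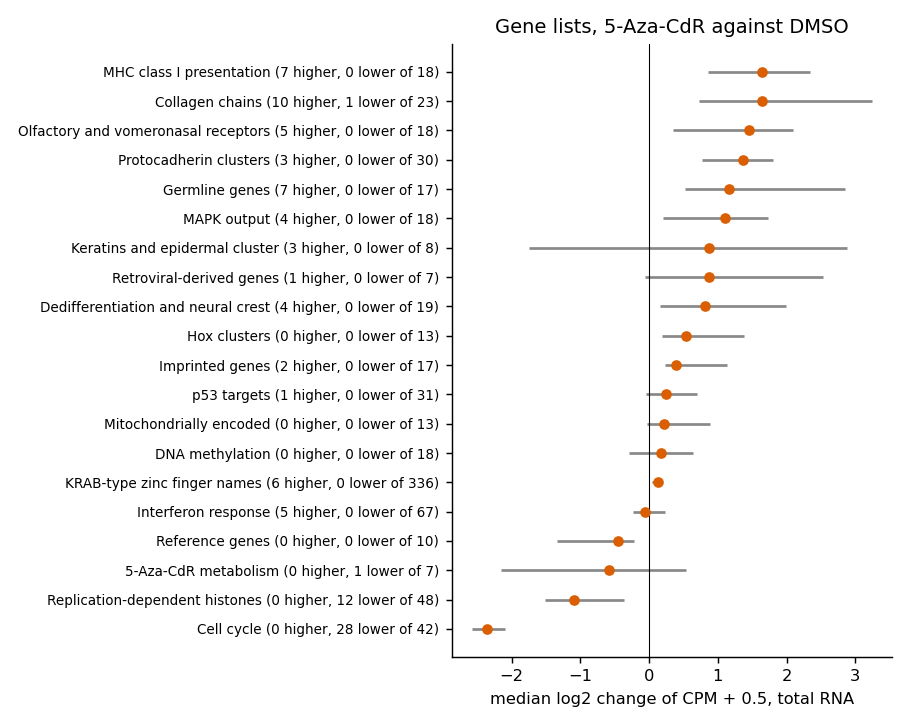
Median log2 difference of CPM + 0.5 in total RNA (x axis, 5-Aza-CdR minus DMSO) for 20 gene lists, with the 95% binomial interval of the median over members as a line, and the number at least 4-fold higher and lower of those that passed the level filter. The interval reflects the spread between genes and not between cultures. MHC class I presentation and collagen chains lie at 1.64, and the cell cycle genes at -2.35.

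Genes of cell division were prominent among the lower genes by number, with 28 of the 254, while Ogn had the lowest log2 difference above 10 CPM, -5.37. Of 42 cell cycle genes 28 were at least 4-fold lower with 5-Aza-CdR, beside 1.76% of all genes, and 0 higher, 41 had a lower value, and the median log2 difference was -2.35. Their summed level was 6386 CPM with DMSO, 4942 CPM with ADAR1i-124 and 1192 CPM with 5-Aza-CdR. Among G2/M genes, which act in the last phase before and during division, 21 of 22 were lower, and among G1/S and replication genes 7 of 20. Ccnb1 was at 189 CPM with DMSO, 115 with ADAR1i-124 and 13.3 with 5-Aza-CdR, a log2 difference of -3.77 (interval -3.97 to -3.68). Ccnb2, the other B-type cyclin gene, was at 90.9 and 5.96 CPM, Cdc25c, a phosphatase gene that activates mitotic kinase, at 37.2 and 2.52 CPM, Aspm, a spindle pole gene, at 168 and 13.7 CPM and Ccna2 at 228 and 20.3 CPM. Mki67, a proliferation marker picked after its values were seen, was at 895, 640.4 and 86.6 CPM.

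The precipitated libraries overlapped for these genes. Of the 42, 1 was called lower by edgeR (14 at an unadjusted p under 0.05, and 10 by DESeq2) and 0 had every library with the drug below every one without. Ccnb1 was at 38.1, 143, 25.8 and 102 CPM in J2 and Z22 libraries without 5-Aza-CdR, where the 2 with ADAR1i-124 were the high ones, and at 41.3, 27.4, 77.1 and 12.6 CPM with it (log2 difference -1.19 ± 0.65, SE, edgeR adjusted p = 0.36). The summed cell cycle level was 1676 and 2903 CPM in the precipitated libraries of DMSO and 7315 and 6481 CPM in those of ADAR1i-124, so that it varied over 4-fold between libraries without 5-Aza-CdR. With 5-Aza-CdR alone it was 2078 (J2) and 3889 CPM (Z22), above the DMSO library of the same antibody and so opposite to total RNA, and with the combination it was 1734 and 923 CPM, below the ADAR1i-124 library.

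Replication-dependent histone genes, which are transcribed during DNA synthesis, had 12 of 48 lower (5 to 14 under the alternatives), beside 1.76% of all genes, and 0 higher, with a median of -1.09. Their summed level was 985 CPM with DMSO, 1390 CPM with ADAR1i-124 and 367 CPM with 5-Aza-CdR. In the precipitated libraries the sum was 721 (J2) and 219 CPM (Z22) with DMSO and 644 and 382 CPM with 5-Aza-CdR alone. The Z22 pair thus went opposite to total RNA. With ADAR1i-124 it was 1601 and 1225 CPM there, and with the combination 670 and 429 CPM. Hist1h1b was at 141 and 10.8 CPM, Hist1h1e, also a linker histone gene, at 267 and 33.8 CPM and Hist2h2bb at 25.4 and 0.781 CPM. Of the list, 10 of 58 tested were called lower in the precipitated libraries, beside 0.824% of all genes, and the 3 genes just named were not among them. Their mRNAs lack long poly(A) tails, and their copies are close in sequence, so reads may be shared.

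Genes that write and erase DNA methylation were not past the 4-fold line in either direction (0 of 18 higher and 0 of 18 lower), beside 5.98% and 1.76% of all genes, shares at which 18 genes would hold few or none. Dnmt1, the maintenance methyltransferase that the drug traps, was at 334 CPM with DMSO, 249 CPM with ADAR1i-124 and 165 CPM with 5-Aza-CdR, a log2 difference of -1.01. Its partner Uhrf1, which brings it to newly copied DNA, was at 171, 199 and 56.8 CPM, and Hells, a remodelling helicase gene, at 157, 140.0 and 44.2 CPM. Tet2, which oxidizes methylcytosine, was at 87.7, 81.7 and 229 CPM. The de novo enzyme genes Dnmt3a (55 and 73.3 CPM) and Dnmt3b (2.06 and 1.59 CPM) differed less. Dnmt3l, a germ cell cofactor of the de novo enzymes, had 1 and 32 counts in total RNA, under the level filter. After precipitation it was at 0.0695 to 0.136 CPM without and 0.367 to 2.29 CPM with the drug (log2 difference 3.68 ± 0.71, SE, edgeR adjusted p = 0.019). The adjusted p of Dnmt3l was under 0.05 in 8 of 13 alternative fits, and Dnmt3l could enter that test only through the libraries with the drug.

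Of 7 genes that handle the drug itself, 1 was at least 4-fold lower (0 to 1 under the alternatives), beside 1.76% of all genes. It was Dctd, a deoxycytidylate deaminase gene, at 38, 21.7 and 8.13 CPM. Dck, which activates the drug by phosphorylation, was at 55.5, 36.8 and 15.2 CPM, a log2 difference of -1.83 (interval -2.02 to -1.71), and Cda, which inactivates it by deamination, at 11.6, 3.29 and 17.2 CPM. In the precipitated libraries Dck was at 2.64 to 31.3 CPM without and 5.79 to 16.3 CPM with the drug, so the groups overlapped.

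Outside these lists the lowest log2 differences in total RNA above 10 CPM included Ogn, a small proteoglycan gene (57.1, 0.511 and 0.897 CPM with DMSO, ADAR1i-124 and 5-Aza-CdR), Tenm4 (283, 12.3 and 15.8 CPM) and Lars2 (331, 47.1 and 20.3 CPM). In these 3 genes the ADAR1i-124 library was also far below DMSO. Ccn2, a matrix-associated growth factor gene, was instead at 106, 467 and 7.84 CPM. Of noncoding genes Gm17501 was at 19, 14.9 and 2.23 CPM and in precipitated libraries at 8.62 to 27.2 CPM without and 1.78 to 7.96 CPM with the drug (log2 difference -2.52 ± 0.41, SE, edgeR adjusted p = 0.0085). The adjusted p of Gm17501 was under 0.05 in 12 of 13 alternative fits. Gm42418 and Gm26917, which lie next to each other on chromosome 17 and take up reads of ribosomal RNA, differed in opposite directions, at 3342 and 299 CPM and at 1776 and 8355 CPM, while ADAR1i-124 was at 2843 and 24505 CPM. Of 10 reference genes 0 passed the 4-fold line, 9 had a difference below 0 and the median was -0.45, with Actb at 8051, 10241 and 3171 CPM.

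By position the higher genes were spread over all autosomes and the X chromosome, from 3.59% of genes compared on chromosome 12 to 8.03% on chromosome 7. In all 12 runs of at least 3 neighbouring higher genes held 39 genes. Besides the Y run and the H2-Q run these included Gm26870, Gm10722 and Gm11168 at the start of chromosome 9, Sohlh2, Dclk1 and Gm43549 on chromosome 3, and Sparcl1, Dmp1 and Ibsp, matrix protein genes of bone and other tissues, on chromosome 5. The genes just inside the upper 4-fold line were Vegfa (66.8 and 269 CPM) and Nmnat2 (6.88 and 29 CPM), and just outside it Emb (1.12 and 5.96 CPM) and Nsg1 (1.53 and 7.61 CPM). At the lower line they were Hacd4 (25.4 and 5.96 CPM) and Apex1 (108 and 26.5 CPM) inside, and Spdl1 (34.3 and 8.21 CPM) and Plscr2 (81.5 and 20 CPM) outside.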

How the data were processed

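Raw counts per gene were deposited by the authors in 1 table of 54532 genes, made from ribosomal RNA-depleted, paired-end libraries mapped with STAR within snakePipes to mm10. The counting tool and its strand setting are not given in the sources used here. Identifiers were matched to GENCODE M21 (54495 genes, 37 without a match). Counts were divided by the column sum and set to a total of 1e+06 (CPM), 0.5 CPM was added before log2, and genes reaching 1 CPM on average were compared at a 4-fold line. Columns of every sample were mapped by name (0 left over). The total RNA library of the combination was not used, because its 1245894 counts had a Spearman correlation of 0.229 across genes with the DMSO library, where every other library had at least 0.858, and the IgG library entered no comparison.

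The 8 precipitated libraries (8167960 to 14663357 counts) were tested with edgeR 4.0.16 in R 4.3.3 (quasi-likelihood test, TMM factors, filterByExpr, antibody and ADAR1i-124 as covariates, 4 residual degrees of freedom), adjusted over all genes tested by Benjamini-Hochberg. P-values measure the spread between these libraries, each 1 condition. Both steps were run on simulated counts without antibody or inhibitor effects. Those runs do not show how the steps behave at the spread between these libraries. DESeq2 1.42.0, other scalings, pseudocounts and filters were alternatives. Promoters came from the mm10 genome sequence, and of the 14391 genes 9579 had a RefSeq promoter entry.

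Named genes were, by a rule, the 10 protein-coding genes with the largest rise and fall, 6 noncoding with the largest rise and 4 with the largest fall above a mean of 10 CPM, the 12 silent genes with the highest level, at most 5 members of each list with the largest change, all markers and methylation genes, genes of the 5 longest runs and those next to the line. Exceptions are stated in the text, and Tsix, Ube3a, Med6 and Gm26917 (partners of named genes) and the runs on chromosomes 3 and 5 with Sohlh2 and Sparcl1 were also chosen after their values were seen. The members, lists and rules were chosen with earlier results of these data known, so no list is independent support.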

Additional observations from a re-analysis of the deposited data

How the results depend on the processing

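In total RNA the counts over all genes kept within 1.5 times of those reported under TMM or DESeq2 size factors, without the 20 largest genes, at a pseudocount of 0.1 CPM and with no filter, with the exceptions below. Counts for some gene lists moved further. For example, the higher genes ranged from 1 to 7 for protocadherins, 2 to 8 for the receptors and 1 to 10 for germline genes. Genes at least 4-fold higher numbered 423 with a pseudocount of 2 CPM and 471 with a mean of at least 5 CPM. A 2-fold line gave 2450 higher and 1289 lower. The silent genes numbered 88 when 0 counts with DMSO were required and 27 with a mean of at least 5 CPM. The noncoding share of the higher genes was 13.4%, and 8.51% with a pseudocount of 2 CPM. Neighbour runs numbered 12, with 21 at a pseudocount of 0.1 CPM and 2 at 2 CPM. Higher genes were 77.2% of those past the line, and 67.8% with a mean of at least 5 CPM. In the precipitated libraries 1321 genes were called higher with no filter beyond 1 count. The 129 called lower became 69 with a block for each antibody and inhibitor pair, 430 with DESeq2, 32 with column sums, 533 with no filter beyond 1 count and 38 with J2 libraries only. The 18 called lower among the genes lower in total RNA became 83 with DESeq2, 9 with column sums and 126 with no filter beyond 1 count. Leaving out 1 library at a time (planned for the Z22 library with DMSO, added after seeing the data for the other 7) gave 262 to 710 called higher and 14 to 171 called lower over all genes, 150 to 296 higher among the genes higher in total RNA, 69 to 89 among the silent genes and 7 to 42 lower among the lower genes. The lowest of these for all genes came without the J2 library of 5-Aza-CdR. The cause of these shifts was not tested. The ADAR1i-124 library as control, genes without the Y chromosome and the non-overlap counts were also added after seeing the data. No paired analysis of total RNA was possible because each condition is 1 library. Depth limits genes under 0.176 CPM with DMSO, where only a lower bound of the fold can be given.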
